A study of Homo sapiens with 12 samples.

Results

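CD44 is the main cell-surface receptor for hyaluronan, the long sugar polymer of the extracellular matrix, and is abundant on glioblastoma cells of the mesenchymal kind. Its extracellular part binds hyaluronan, osteopontin and other matrix molecules. Its cytoplasmic tail is tied to the actin cortex through the ezrin, radixin and moesin proteins, and it acts as a co-receptor for several growth factor receptors. The comparison described here set U251 cells with a short hairpin RNA against CD44 beside U251 cells with a control hairpin, both kept for 24 h with DMSO, the solvent of temozolomide. U251 is an established human glioblastoma line. The members are the 3 knockdown and the 3 control libraries of poly(A)-selected RNA that received DMSO, 6 of the 12 libraries in the series, and the comparison covers the 12821 of 20289 listed genes that passed a filter on low counts.

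The control group is labelled shCtrl with DMSO, the knockdown group shCD44 with DMSO. In the labels' genotype field the control is wild type. The other 6 libraries carry the same hairpins with 50 µM temozolomide, a DNA-alkylating drug, for 24 h. They entered the model that estimates the spread between libraries, and they are compared only where that is said. Neither the sequence of the hairpins nor the number of hairpins per gene is given in the sources used here, so changes that follow a hairpin and changes that follow the loss of CD44 cannot be told apart. Whether the 3 libraries of a group came from separate cultures is not in the labels. The p-values therefore measure the spread between these libraries only, which may be technical. In bulk RNA, fewer cells of a state and less RNA per cell cannot be told apart.

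The 6 libraries held 15128681 to 19800877 estimated counts each, and a level of 3 counts was 0.152 to 0.198 CPM (counts scaled to 1e6 per library). On the first principal component of all 12 libraries the 3 control libraries lay on one side and the 3 knockdown libraries on the other. The median level of genes above 60% GC less that of genes under 40% GC, each relative to its mean over all libraries, was 0.07 to 0.22 (log2) in the control and -0.08 to -0.03 in the knockdown libraries. The part of this difference in single results was not tested; all calls were repeated with a GC correction, and where it ends a call of a named gene that is said. Of 14 markers for the labelled cell type 10 were tested: NES, VIM, SOX2, SOX9, PTPRZ1 and EGFR were all well counted, GFAP had 6 to 27 counts, AQP4 at most 1, and OLIG2 had 0 counts in all 6 libraries. Markers of other cells were also read. Of 8 leukocyte and 5 oligodendrocyte markers none passed the filter. Of 8 epithelial markers 6 were tested. Their summed level was 1721 to 1778 CPM in the control and 1098 to 1219 CPM in the knockdown libraries. CDH1, at 0 or 1 count, and EPCAM, at 0 to 2, were not tested. The sum of the 4 tested of 8 neuron markers was 71.1 to 72.9 CPM in the control and 99.7 to 103.5 CPM in the knockdown libraries. The defining RBFOX3, at 2 to 8 counts, was not tested. For the 4 tested of 6 endothelial markers the sum was 42.5 to 48.3 and 31.6 to 32.8 CPM, nearly all from CDH5, with PECAM1 at 5 to 18 counts. For the 5 tested of 7 fibroblast and mural markers it was 212 to 218 and 179.5 to 198 CPM, nearly all from COL1A2. DCN, at 0 or 1 count, was not tested. Their part in the results was not tested.

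CD44 itself (ENSG00000026508, chromosome 11, 35138870 to 35232402 on the plus strand, GENCODE v29 on GRCh38) was lower in every knockdown library. It had 17129, 16613 and 17749 counts in the control and 6323, 6821 and 8244 in the knockdown libraries. The groups did not overlap, and the mean level went from 1090.2 ± 43.3 to 419.6 ± 1.03 CPM (SD, n = 3), a log2 fold change of -1.38 (SE 0.03) with adjusted p = 3.2e-17 by the quasi-likelihood test of edgeR (Benjamini-Hochberg). Per length, the authors' FPKM (fragments per gene length and depth) fell further, from 424 to 137. Throughout, a gene is said to rise or fall where this test gave an adjusted p below 0.05 over all 12821 genes, and changes without another unit are log2 fold changes of knockdown over control. Genes are grouped in 52 lists with 2669 entries, of which 2313 were tested. Each list's count is over its tested entries and is read beside the 21.1% and 21.4% of all tested genes that rose and fell. The filter on low counts keeps a gene expressed in 1 group alone, so these counts describe the tested entries only. Leaving out 1 library shifted the list medians within 0.1 of 0 by up to 0.07 and list counts of 8 or fewer by up to 3. Of 55 larger list counts (10 or more) 15 dropped by over 1.5 times in at least 1 of 3 limma fits to FPKM, 14 of them counts of falls.

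In the hyaluronan system, 28 of 39 listed genes were tested, 13 rose and 5 fell (median 0.08). HAS2, a synthase that makes long hyaluronan, fell by 1.36 and had 4.87, 5.97 and 6.05 CPM in the control and 2.26, 2.46 and 1.88 CPM in the knockdown libraries. HMMR, the other well-known hyaluronan receptor, which also works at the mitotic spindle, rose by 0.43. SPP1, the gene of the CD44 ligand osteopontin, went from 32.9 ± 1.37 to 74.0 ± 3.52 CPM. SLC7A11, the cystine transporter that a CD44 variant stabilises at the membrane, rose by 0.50. EZR (ezrin) fell by 0.15 and CEMIP2, a hyaluronidase, by 0.27. CEMIP, a related gene that also breaks down hyaluronan, was at 3.21 ± 0.86 and 3.01 ± 0.323 CPM and did not pass the test.

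Across the genome the knockdown cells differed at many genes by small amounts. Of all tested genes, 2709 rose (21.1%) and 2748 fell (21.4%), and 4395 of these 5457 changes (80.5%) were under 1.5-fold. The groups did not overlap at 5198 of the called genes. A call itself favours separation, so this count is no further support for the calls. Changes of 2-fold or more were less even in direction, with 338 genes higher (2.64%) and 120 lower (0.936%), and at 4-fold or more the counts were 69 and 11. Under scaling to library totals, without TMM, the split of all calls was 3387 higher and 2169 lower, and after the GC correction it was 2296 and 3321. Summed in CPM, the genes called lower changed by -73600 and the genes called higher by 44500. The share called grew with the level, taken as the mean of the 6 libraries. Among genes above 300 CPM 23.5% rose and 43.1% fell, against 12.1% and 4.74% of those under 1 CPM. It also moved with base composition: below 40% GC 32.8% rose and 11.7% fell, and above 60% GC 10.3% rose and 31.0% fell. Above 300 CPM in the mean of the 6 libraries, only CD44, FBN2, KRT15 and EHF fell by 2-fold or more. Only CTSB rose by as much. EHF, a factor of epithelia, is named here after its values were seen.

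**Figure D1:**
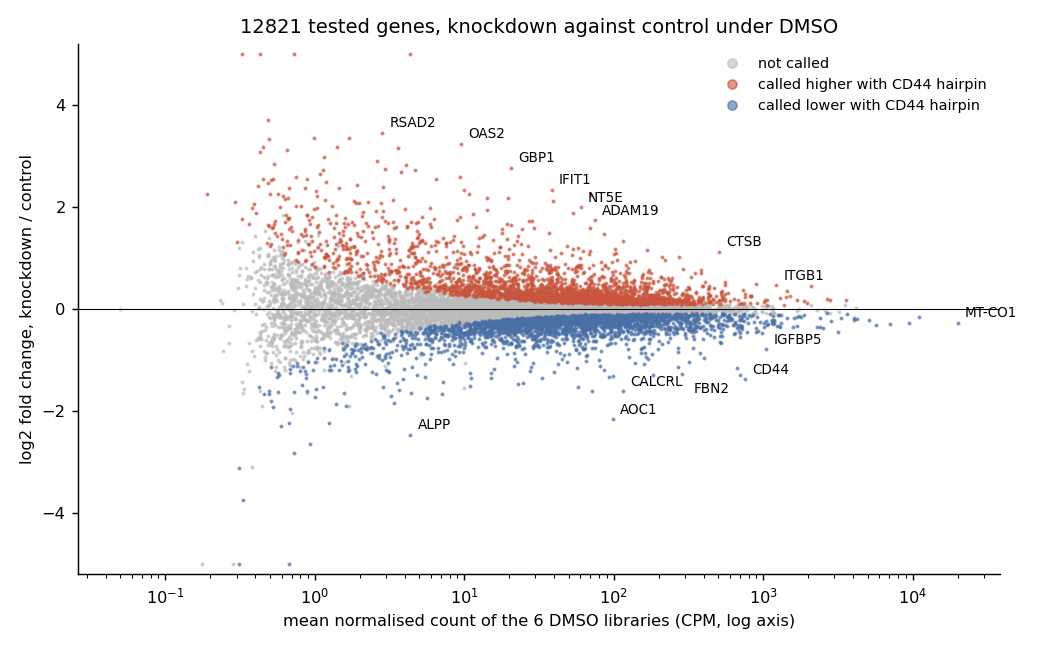
Each point is 1 of the 12821 tested genes, with the mean normalised count of the 6 DMSO libraries on the x axis (CPM, log scale) and the log2 fold change of knockdown over control on the y axis; red genes were called higher, blue genes lower, grey genes neither, and 8 points beyond 5 on either side are drawn at the edge. The rises of 2-fold or more outnumber the falls (338 against 120), and CD44 and FBN2 stand out as the lowest points above 300 CPM.

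The largest falls were ranked among called genes that reached 5 CPM and did not overlap between groups. They led with placental alkaline phosphatase ALPP and the diamine oxidase AOC1, which breaks down histamine. AOC1 (ENSG00000002726, chromosome 7, 150824627 to 150861504 on the plus strand) had 148, 163 and 171 CPM in the control and 36.0, 35.6 and 36.3 CPM in the knockdown libraries. ALPP, which has close copies in the genome so that its reads may be shared, had 7.04, 7.36 and 7.75 CPM in the control and 1.26, 1.54 and 1.22 CPM in the knockdown libraries. Both were separated between groups, as the ranking required, with changes of -2.16 (SE 0.05) and -2.46 (SE 0.19). CALCRL, a receptor for adrenomedullin and calcitonin gene-related peptide, had 177, 181 and 163 CPM in the control and 57.0, 58.2 and 55.04 CPM in the knockdown libraries. ASIC1, an acid-sensing sodium channel, had 81.4, 88.1 and 85.97 CPM in the control and 29.8, 28.997 and 30.1 CPM in the knockdown libraries. By the same condition, neither gene overlapped between groups. The other large falls were those of TMEM100 (-1.84), the uroplakin UPK3B (-1.75), C1orf116 (-1.66), the folate receptor FOLR1 (-1.65), the protease-like PRSS35 (-1.60), the mucin MUC5B (-1.58), the collagen processing enhancer PCOLCE (-1.51), RIPOR2 (-1.46), the mitochondrial ribosomal MRPL16 (-1.46), the pro-apoptotic BMF (-1.45) and the neurotrophin receptor NTRK3 (-1.43). The adjusted p of these 15 falls, which had to be called to be ranked, was at most 9.2e-06 (edgeR, Benjamini-Hochberg).

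The largest rises, ranked under the same conditions, were of another kind. Of the 15, RSAD2, OAS1, OAS2, IFIT1, IFIT3, GBP1, GBP3 and GBP5 are interferon-stimulated antiviral genes and CD274 and PDCD1LG2 encode the checkpoint ligands PD-L1 and PD-L2. TRAF1, which docks to receptors of the tumour necrosis factor family, had 1.12, 1.39 and 0.529 CPM in the control and 7.12, 7.31 and 6.96 CPM in the knockdown libraries. NAV3, a microtubule-binding protein, had 0.921, 1.13 and 0.998 CPM in the control and 6.72, 6.82 and 6.15 CPM in the knockdown libraries. As the ranking required, the lowest knockdown library stood above the highest control library for both. RGS4, which dampens G protein signalling, and LRRC17 rose by 2.56 and 2.75. In CPM, a scale that weights abundant RNAs, the largest losses were in housekeeping genes: MT-CO1 of the mitochondrial genome went from 21878 ± 1176 to 18175 ± 585 CPM, the elongation factor EEF1A1 from 10423 ± 184 to 8643 ± 148 CPM and the glycolytic GAPDH from 6318 ± 281 to 5094 ± 136 CPM. FBN2, a fibrillin of elastic matrix, went from 1003 ± 56.9 to 408 ± 9.71 CPM. The largest gains were in the membrane and cytoskeletal genes ANXA2 (from 1764 ± 38.2 to 2410.1 ± 77.9 CPM), VIM (from 3376 ± 96.7 to 3841 ± 37.7 CPM), ITGB1 (from 1025 ± 19.9 to 1418 ± 29.4 CPM), FLNA (from 2481 ± 53.2 to 2834 ± 81.0 CPM) and MYH9 (from 1281 ± 44.9 to 1627 ± 49.5 CPM), and in CTSB, the lysosomal protease cathepsin B (from 317 ± 9.01 to 691 ± 15.6 CPM). TFRC, the transferrin receptor, and the aspartyl hydroxylase ASPH rose by 0.49 and 0.77.

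**Figure D2:**
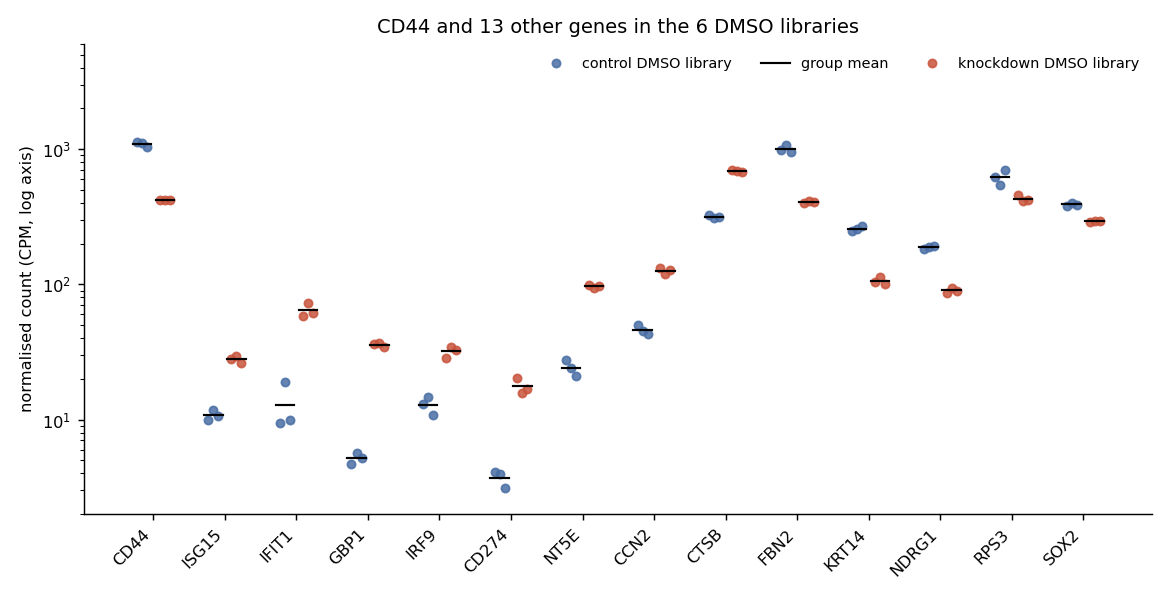
The plot shows normalised counts (CPM, log axis) of CD44 and 13 other genes in each DMSO library, with control libraries in blue, knockdown libraries in red and a black bar at each group mean. In each of the 14 genes the 3 control and the 3 knockdown libraries do not overlap; FBN2, KRT14 and NDRG1 fall by more than 2-fold as CD44 does, and control library 2 is the highest control library in IFIT1, at 18.9 CPM.

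Interferons act through receptor chains that start JAK kinases; these phosphorylate STAT proteins, which with IRF9 bind a promoter sequence called the interferon-stimulated response element (ISRE). The genes so induced include sensors of viral RNA, so the pathway feeds back on itself. Promoters of a few genes are given first, since 52 of 60 tested effectors rose. The 250 bases before each start are from the RefSeq promoter table (GRCh38.p14), printed 5′ to 3′ in lower case with every match to the letters TTTC, any 2 bases and TTTC on either strand in capitals; IFIT1, ISG15 and GBP1 rose and LGALS3BP, which also has a match, did not pass the test.
IFIT1, chr10:89392373-89392622, plus strand: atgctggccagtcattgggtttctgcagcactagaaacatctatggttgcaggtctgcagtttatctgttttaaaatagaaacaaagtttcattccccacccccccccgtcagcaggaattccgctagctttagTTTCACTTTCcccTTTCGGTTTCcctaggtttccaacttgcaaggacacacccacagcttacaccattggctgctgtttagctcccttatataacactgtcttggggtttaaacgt
ISG15, chr1:1013247-1013496, plus strand: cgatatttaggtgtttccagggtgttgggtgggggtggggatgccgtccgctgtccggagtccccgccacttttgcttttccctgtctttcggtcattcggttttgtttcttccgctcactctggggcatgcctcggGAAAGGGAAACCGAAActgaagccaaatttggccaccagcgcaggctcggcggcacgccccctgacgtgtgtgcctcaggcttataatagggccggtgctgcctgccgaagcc
GBP1, chr1:89065209-89065458, minus strand: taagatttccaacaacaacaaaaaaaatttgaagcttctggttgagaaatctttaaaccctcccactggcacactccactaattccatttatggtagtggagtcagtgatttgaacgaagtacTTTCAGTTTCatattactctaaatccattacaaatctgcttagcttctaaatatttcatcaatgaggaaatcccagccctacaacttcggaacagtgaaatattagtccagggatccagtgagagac
LGALS3BP, chr17:78979924-78980173, minus strand: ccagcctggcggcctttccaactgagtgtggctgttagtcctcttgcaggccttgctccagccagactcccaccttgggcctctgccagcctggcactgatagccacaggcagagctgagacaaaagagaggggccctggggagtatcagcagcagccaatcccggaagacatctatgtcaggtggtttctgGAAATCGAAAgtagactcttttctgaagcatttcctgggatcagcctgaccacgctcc
The first bases of the matches lie 116 and 103 bases before the start in IFIT1, 113 and 107 in ISG15, where the matches overlap, 127 in GBP1 and 58 in LGALS3BP. Among effectors that were tested and have a promoter in the table, 32 of 46 (69.6%) held a match between 250 bases before and 50 after the start, against 295 of 10359 (2.85%) of all tested genes with a promoter and 3.65% of the 27305 promoters in the table. Of the 32 with a match 28 rose (median 1.06), and of the 14 without one 12 rose (median 0.89). Outside the 5 interferon and antigen lists, 249 tested genes had a match, of which 57 rose (22.9%) and 41 fell (16.5%), against 2110 higher and 2192 lower (21.8%) among the 10064 genes without a match. A match is a sequence description and no evidence of binding.

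At the top of the pathway, the interferon genes themselves were at the edge of detection. IFNB1 (interferon beta) had 1, 0 and 1 counts in the control and 3, 3 and 2 in the knockdown libraries, at or under the 3-count floor, and was not tested. IFNL1 had 0 counts in all 6 libraries. Among the tested interferon receptors and related cytokines with their receptors 7 of 12 rose and 1 fell, with a median of 0.15 that was 0.05 after the GC correction. IFNAR1, a chain of the receptor for type I interferon, went from 85.4 ± 3.35 to 95.7 ± 3.51 CPM, a call lost with the GC correction (0.09), and IFNGR2, of the interferon gamma receptor, from 21.9 ± 0.862 to 27.4 ± 0.403 CPM. Their partners IFNAR2 and IFNGR1 were at 16.9 ± 2.89 and 15.04 ± 0.967 CPM and at 47.1 ± 1.96 and 48.8 ± 0.904 CPM, and without control library 1 IFNAR2 was called lower (-0.27). LIFR, the receptor of leukaemia inhibitory factor, rose by 0.65, and OSMR, its counterpart for oncostatin M, changed by 0.00 (SE 0.04) and did not pass.

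Of the sensors and adaptors 19 of 28 rose and 2 fell (median 0.39). DDX58, which encodes the viral RNA sensor RIG-I, had 14.2, 19.96 and 10.3 CPM in the control and 60.8, 66.4 and 64.6 CPM in the knockdown libraries. OAS2, which makes the second messenger that activates RNase L, had 1.78, 1.92 and 1.76 CPM in the control and 16.9, 17.0 and 18.0 CPM in the knockdown libraries. The knockdown libraries were higher in both without overlap, by 2.12 (SE 0.18) and 3.25 (SE 0.29). IFIH1 (the RNA sensor MDA5) went from 26.7 ± 2.36 to 48.6 ± 4.06 CPM, the nucleic acid sensor IFI16 from 57.0 ± 5.198 to 108 ± 5.32 CPM and TLR3, a receptor for double-stranded RNA, from 7.71 ± 0.318 to 13.97 ± 0.75 CPM. The adaptors went the other way: MAVS, through which RIG-I and MDA5 signal, fell from 126 ± 7.21 to 112 ± 3.89 CPM, and STING1, the adaptor of DNA sensing, from 20.1 ± 1.08 to 17.2 ± 0.823 CPM. The adjusted p was 0.0303 for STING1 and 0.00333 for MAVS (edgeR, Benjamini-Hochberg). The call of STING1 was lost without control library 2 (-0.22) or 3 (-0.19), without knockdown library 2 (-0.20) or 3 (-0.22) with the GC correction (-0.19), library totals alone (-0.19) or DESeq2 (-0.23) and in the 3 fits to FPKM (-0.16 to -0.14), and that of MAVS in the 3 fits to FPKM (-0.12 to -0.13). The DNA sensor gene CGAS had 0 to 2 counts and was not tested.

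In the signalling layer 9 of 19 tested genes rose and 0 fell (median 0.15). IRF9 had 12.96, 14.7 and 10.8 CPM in the control and 28.7, 34.6 and 32.8 CPM in the knockdown libraries. Each knockdown library exceeded each control library, and the change was 1.33 (SE 0.16). STAT2, a partner of IRF9 in the complex that binds the ISRE, rose by 0.17, a call lost in 2 fits to FPKM, and IRF1, a factor induced by interferon gamma, went from 12.1 ± 1.19 to 20.6 ± 2.22 CPM. JAK1 was at 190.1 ± 6.11 and 191 ± 4.12 CPM. SOCS2, a feedback inhibitor of cytokine receptors, rose by 0.96. IRF7 had 0 to 6 counts and was not tested. The largest adjusted p of these rises was 0.00761 (edgeR, Benjamini-Hochberg).

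Of 67 listed effectors 60 were tested, and 52 rose, 28 of them by 2-fold or more, 0 fell and 8 did not pass. Their median was 0.88 (quartiles 0.48 to 1.58), against 0.00 (quartiles -0.17 to 0.17) over all tested genes. Of the 55 with at least 1 CPM in the control 47 rose and 0 fell (median 0.87). ISG15, a ubiquitin-like modifier, had 9.87, 11.8 and 10.6 CPM in the control and 28.2, 29.7 and 26.3 CPM in the knockdown libraries. IFIT1, which binds viral RNA that lacks the host cap mark, had 9.47, 18.9 and 9.98 CPM in the control and 58.8, 72.9 and 61.1 CPM in the knockdown libraries. The knockdown libraries were higher in both. Control library 2 was the highest control library in both and in DDX58, OAS2 and IRF9, and without it the median of the effectors was 0.97. GBP1, a guanylate-binding GTPase that attacks vacuoles of pathogens and belongs to a family of close copies, had 4.67, 5.70 and 5.23 CPM in the control and 35.9, 36.9 and 34.3 CPM in the knockdown libraries, the groups again without overlap. MX1, a GTPase that blocks viral nucleocapsids, went from 12.3 ± 0.696 to 36.6 ± 3.48 CPM, the helicase DDX60 from 9.97 ± 1.02 to 31.4 ± 1.34 CPM, GBP2 from 9.24 ± 1.04 to 29.3 ± 3.24 CPM and the virus tether BST2 from 24.1 ± 0.527 to 40.3 ± 2.23 CPM. RSAD2 (viperin) had 5, 12 and 5 counts in the control and 65, 103 and 97 in the knockdown libraries. Its fold of 3.46 (SE 0.43) rests on those few control counts. LGALS3BP, a secreted glycoprotein, was at 571 ± 12.3 and 542 ± 14.9 CPM.

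**Figure D3:**
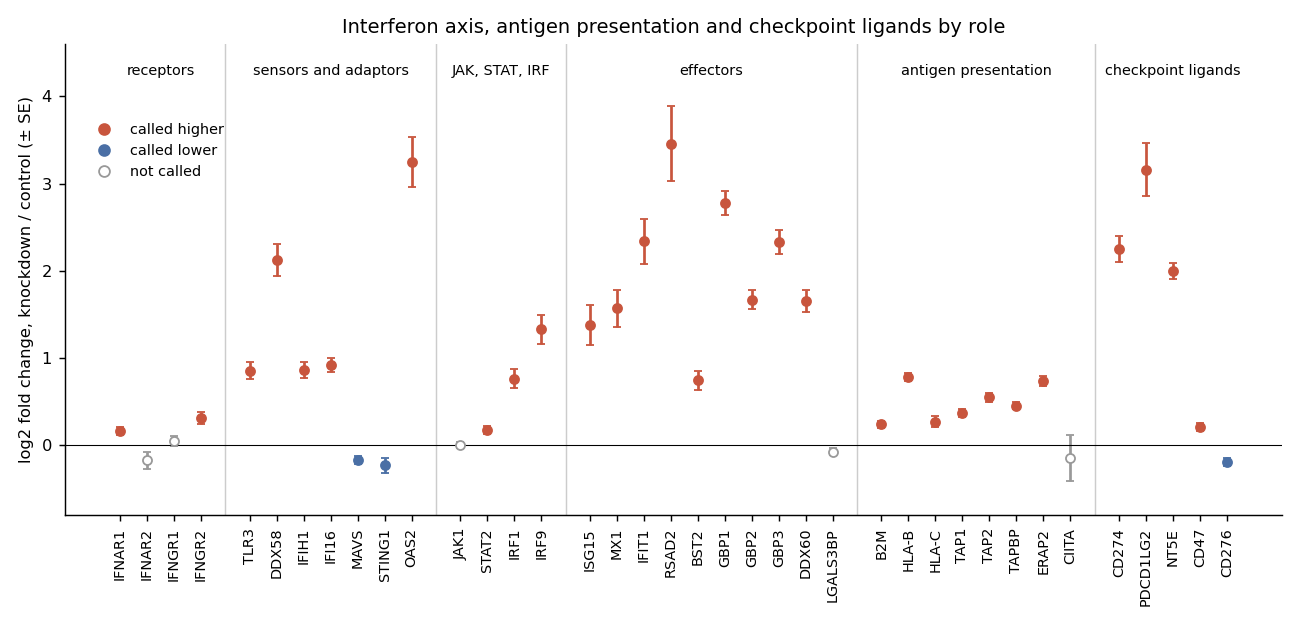
Points are log2 fold changes of knockdown over control under DMSO with SE bars, for genes of the interferon axis, antigen presentation and checkpoint ligands ordered by role; red points were called higher, blue lower and open grey points not called. Effectors reach from -0.08 (LGALS3BP) to 3.46 (RSAD2), the 4 receptor chains drawn lie within 0.32 of 0, and the adaptors MAVS and STING1 are below 0.

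Peptides for display on MHC class I are pumped by the TAP transporter and trimmed by ERAP enzymes. Of the antigen presentation genes 16 of 28 tested rose and 2 fell (median 0.24). HLA-B had 210.3, 209.5 and 221 CPM in the control and 379.7, 368 and 358 CPM in the knockdown libraries, with all knockdown libraries above all control libraries, and HLA-C went from 89.6 ± 9.51 to 109 ± 8.90 CPM. Class I genes are near copies of each other, so reads may have been split between them. The shared light chain B2M went from 1308 ± 55.6 to 1547 ± 81.5 CPM, TAP1 from 103 ± 1.80 to 133 ± 0.645 CPM, TAP2 from 87.7 ± 4.18 to 128 ± 1.97 CPM, the loading factor TAPBP from 89.6 ± 4.23 to 123 ± 0.39 CPM and ERAP2 from 28.8 ± 1.48 to 48.0 ± 1.31 CPM. CIITA, the master factor of class II genes, was low in both groups, at 1.68 ± 0.37 and 1.53 ± 0.182 CPM, and the chaperone CANX was at 2302 ± 65.5 and 2285 ± 6.07 CPM.

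Of the checkpoint ligands and purine ecto-enzymes 10 of 25 tested rose and 1 fell (median 0.26). Of the 18 with at least 1 CPM in the control 8 rose and 1 fell (median 0.24). CD274 (PD-L1) had 4.08, 3.98 and 3.11 CPM in the control and 20.4, 15.8 and 16.9 CPM in the knockdown libraries. NT5E encodes CD73, which makes immunosuppressive adenosine outside the cell, and had 27.4, 24.1 and 21.02 CPM in the control and 98.7, 93.7 and 97.1 CPM in the knockdown libraries. In both genes the groups were far apart, with changes of 2.25 (SE 0.15) and 2.00 (SE 0.09). ENPP1, which makes AMP, the substrate of CD73, went from 18.3 ± 1.35 to 35.8 ± 0.634 CPM, and CD70, a ligand of the T cell receptor CD27, from 55.9 ± 3.30 to 87.5 ± 3.05 CPM. CD47, the "do not eat me" signal to macrophages, rose by 0.21. CD276 (B7-H3) fell from 77.1 ± 1.77 to 67.6 ± 1.18 CPM, a call lost with the GC correction (-0.11), and NECTIN2 was at 42.0 ± 1.99 and 43.7 ± 2.41 CPM. The largest adjusted p among the named changes of both lists was 0.0015 (edgeR, Benjamini-Hochberg).

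NF-kB is a family of dimeric factors held in the cytoplasm by inhibitors such as the product of NFKBIA; RELA with NFKB1 forms the canonical dimer and RELB with NFKB2 the non-canonical one. Of 35 tested factors and feedback targets 17 rose and 2 fell (median 0.18). The non-canonical pair rose, RELB from 4.46 ± 0.318 to 10.6 ± 0.408 CPM and NFKB2 from 29.2 ± 1.45 to 50.1 ± 3.22 CPM. RELA was at 80.9 ± 3.00 and 81.0 ± 2.32 CPM and was called higher in the 3 fits to FPKM (0.24). NFKB1 rose by 0.20, and NFKBIA was at 25.1 ± 1.11 and 23.9 ± 1.24 CPM. BIRC3, an inhibitor of apoptosis that also restrains the non-canonical arm, had 14.3, 13.1 and 10.1 CPM in the control and 34.9, 33.0 and 32.6 CPM in the knockdown libraries. TNFAIP3 (A20), a deubiquitinase that ends the signal, had 15.1, 13.1 and 12.8 CPM in the control and 30.2, 26.4 and 29.98 CPM in the knockdown libraries. The knockdown libraries were higher in both without overlap. SOD2 and BIRC2 rose by 0.70 and 0.62, and TNFAIP2, named for its induction by tumour necrosis factor, fell from 484 ± 15.5 to 267 ± 3.501 CPM. The NF-kB consensus motif, searched on both strands between 250 bases before and 50 after the start, stood in 11 of 32 promoters of the list (34.4%), against 6.54% of all tested genes with a promoter.

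Of 52 chemokine, cytokine and receptor genes 24 passed the filter, which a gene can pass through 1 group alone, and 15 of these rose and 2 fell. Of the 24, 7 had a mean under 1 CPM in the control, and all 7 are among the rises. The median was 0.97 over the 24, 0.24 over members with at least 1 CPM in 3 libraries and 0.36 in the fit to log2(FPKM + 1), smaller where low genes count less. CXCL8, which attracts neutrophils, had 26, 22 and 26 counts in the control and 70, 77 and 115 in the knockdown libraries. IL1A, an alarm cytokine, had 2, 4 and 7 counts in the control and 57, 25 and 46 in the knockdown libraries. Both were higher in each knockdown library, and their changes were 1.70 (SE 0.24) and 3.18 (SE 0.41). CCL2, which attracts monocytes, went from 15.8 ± 1.57 to 30.6 ± 0.948 CPM, and CSF1, a growth factor of macrophages, from 7.66 ± 0.724 to 16.8 ± 1.46 CPM. The falls were those of CXCL14, a chemokine of epithelia, and of IL1RAP. CXCL14 had 345, 364 and 396 CPM in the control and 168, 178 and 159.5 CPM in the knockdown libraries. IL1RAP, the shared chain of interleukin-1 receptors, had 141, 142 and 141 CPM in the control and 55.6, 55.4 and 58.4 CPM in the knockdown libraries. Neither overlapped between groups.

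Of complement and coagulation genes 21 of 28 tested rose (75%, against 21.1% of all genes) and 2 fell (median 0.44). F3 (tissue factor), which starts coagulation, went from 51.98 ± 1.45 to 94.1 ± 5.36 CPM, and PLAU (urokinase), a protease that activates plasminogen, from 88.2 ± 3.93 to 168 ± 7.80 CPM. ANXA2, which assembles plasmin at the cell surface, is among the largest gains given above. CLU was at 109.6 ± 3.67 and 108 ± 1.58 CPM, and the clotting factor gene F8 fell from 26.8 ± 1.36 to 19.96 ± 0.618 CPM.

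YAP and TAZ (YAP1 and WWTR1) are co-activators that enter the nucleus on stiff or spread contacts and act through TEAD factors, whose site holds GGAATG. Of 38 tested genes of the pathway 22 rose and 5 fell (median 0.24). The classic targets CCN2 and CCN1, both matricellular proteins, rose together. CCN2 had 49.9, 44.8 and 42.8 CPM in the control and 132, 119.8 and 128 CPM in the knockdown libraries. CCN1 had 66.5, 67.2 and 63.3 CPM in the control and 169, 167 and 162 CPM in the knockdown libraries. Neither gene overlapped, and the changes were 1.47 (SE 0.08) and 1.34 (SE 0.04). ANKRD1, an equally classic target, was at 38.5 ± 1.41 and 41.0 ± 2.69 CPM. The promoters of CCN2 and ANKRD1 are shown because both hold the TEAD letters (capitals, either strand) and only CCN2 was called.
CCN2, chr6:131951373-131951622, minus strand: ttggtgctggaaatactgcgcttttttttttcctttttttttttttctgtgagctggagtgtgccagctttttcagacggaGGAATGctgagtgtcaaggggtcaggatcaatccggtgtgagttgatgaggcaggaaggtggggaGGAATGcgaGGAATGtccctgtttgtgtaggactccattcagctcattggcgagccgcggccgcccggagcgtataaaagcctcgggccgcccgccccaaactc
ANKRD1, chr10:90921088-90921337, minus strand: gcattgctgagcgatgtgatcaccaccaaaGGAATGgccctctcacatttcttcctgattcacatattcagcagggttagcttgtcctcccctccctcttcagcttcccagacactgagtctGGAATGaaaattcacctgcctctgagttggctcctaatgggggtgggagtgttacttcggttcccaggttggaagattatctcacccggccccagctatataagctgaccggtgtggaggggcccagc
The letters GGAATG start 169, 104 and 95 bases before the start of CCN2 and 220 and 128 bases before that of ANKRD1. They stood in 8 of 30 promoters of the list (26.7%) and in 10.9% of all tested genes with a promoter; of the 8 genes 5 rose and 1 fell, and of the 22 others 11 rose and 4 fell. Of the factor genes YAP1 went from 179 ± 5.98 to 212 ± 4.45 CPM and WWTR1 from 143 ± 2.72 to 185 ± 6.01 CPM, a call lost in the 3 fits to FPKM. AXL, a receptor kinase and YAP target, had 108, 102 and 101 CPM in the control and 233, 232 and 226 CPM in the knockdown libraries, with every knockdown library above every control library. MYOF, which repairs membranes, fell by 0.26, and AMOT, which holds YAP outside the nucleus, by 0.22.

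MAPK signalling induces immediate-early factors and, as feedback, DUSP phosphatases and SPRY proteins. Here 27 of 44 tested genes rose and 8 fell (median 0.33). FOSL1, an AP-1 subunit, had 16.9, 14.1 and 16.6 CPM in the control and 39.9, 36.4 and 35.8 CPM in the knockdown libraries, without overlap. DUSP6, which dephosphorylates ERK, went from 11.8 ± 1.11 to 20.4 ± 0.315 CPM, the ETS factor ETV5 from 62.2 ± 3.33 to 112 ± 1.68 CPM, KLF6 from 43.8 ± 2.53 to 76.5 ± 2.10 CPM, EGR1 from 2.45 ± 0.18 to 4.02 ± 0.624 CPM and CCND1 (cyclin D1) from 195 ± 3.12 to 298 ± 8.55 CPM. SPRY4 rose by 0.52 and its relative SPRY2 fell by 0.43. The AP-1 genes FOSL2 and JUND and the phosphatase gene DUSP1 fell, by 0.40, 0.38 and 0.34. The AP-1, DUSP and SPRY families thus each had members in both directions.

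Among receptor tyrosine kinases and their ligands 18 of 51 tested rose (35.3%) and 13 fell (25.5%), with a median of -0.04. That median was 0 or above under 9 of 18 alternatives. Of the 44 genes with at least 1 CPM in the control 14 rose and 13 fell. PDGFRA, a receptor often amplified in glioblastoma, had 346, 359 and 340.1 CPM in the control and 188, 194 and 200.5 CPM in the knockdown libraries. All knockdown libraries were lower. EGFR went from 117 ± 2.89 to 152 ± 3.00 CPM and MET was at 433 ± 21.2 and 435 ± 14.3 CPM. ERBB2 and FGFR3 fell by 0.44 and 0.34. The EGFR ligand gene EREG and the orphan receptor gene ROR1 rose by 0.77 and 1.04. Among the named kinase and ligand changes the adjusted p was at most 6.3e-05 (edgeR, Benjamini-Hochberg).

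TGF-beta ligands are stored in the matrix by latent binding proteins (LTBP genes) and signal through SMAD factors. Of 52 tested genes 20 rose (38.5%) and 9 fell (17.3%), against 21.1% and 21.4% of all genes (median 0.14). TGFB2 went from 104 ± 3.71 to 119 ± 3.15 CPM and the receptor TGFBR2 from 89.6 ± 3.05 to 106 ± 4.61 CPM, while the co-receptor TGFBR3 rose by 0.97. LTBP3 and LTBP4 fell by 0.61 and 0.50, as did the ligand GDF11 (-0.54) and the inhibitor SMAD6 (-0.70). SMAD3 and SMAD7 were at 67.1 ± 2.04 and 68.0 ± 6.89 CPM and at 3.67 ± 0.389 and 3.47 ± 0.679 CPM. TGFBI, induced by the ligand for which it is named, was at 256 ± 11.6 and 255 ± 6.39 CPM.

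Notch, Hedgehog and WNT are short-range signals of development, and semaphorins, netrins, slits and ephrins steer growing axons and moving cells. In the Notch and Hedgehog lists 16 of 29 tested fell (55.2% against 21.4% of all genes) and 4 rose (median -0.20). The Notch target genes HEY1 and HES1 went from 72.3 ± 0.878 to 51.3 ± 1.14 CPM and from 21.6 ± 0.716 to 16.9 ± 0.823 CPM. LFNG, which sugars Notch receptors, fell by 0.74, and the Hedgehog regulators SUFU and CDON by 0.49 and 0.46, while the ligand JAG1 went from 143 ± 7.37 to 192 ± 5.72 CPM. Of the WNT pathway 13 of 44 tested fell (29.5%) and 9 rose (20.5%), against 21.4% and 21.1% of all genes. The median was -0.11, and -0.06 without control library 2. CTNNB1 (beta-catenin) went from 734 ± 10.7 to 636 ± 5.38 CPM and the receptor FZD1 from 30.9 ± 0.761 to 18.0 ± 2.56 CPM. DKK3, of the Dickkopf family of secreted proteins, had 13.3, 13.3 and 13.04 CPM in the control and 47.6, 41.9 and 42.6 CPM in the knockdown libraries. It did not overlap and changed by 1.74 (SE 0.08), and the ligand WNT5B rose by 1.35 where WNT5A fell by 0.30. In the axon guidance list 20 of 54 tested fell (37.0%) and 9 rose (16.7%), with a median of -0.09. The falls numbered 11 to 13 in the fits to FPKM. SEMA3B, a repellent ligand, had 22.7, 20.5 and 22.3 CPM in the control and 9.78, 9.52 and 9.55 CPM in the knockdown libraries. The netrin receptor UNC5B had 193, 199 and 187 CPM in the control and 106, 117 and 115 CPM in the knockdown libraries. Both were lower in each knockdown library. ROBO1 and EPHA3 fell by 0.58 and 0.53, netrin NTN1 and the semaphorin and VEGF co-receptor NRP1 rose by 0.90 and 0.57, and SLIT2 was at 86.5 ± 6.59 and 88.0 ± 2.42 CPM. The largest adjusted p among the named falls and rises of these lists was 6.2e-04 (edgeR, Benjamini-Hochberg).

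**Figure D4:**
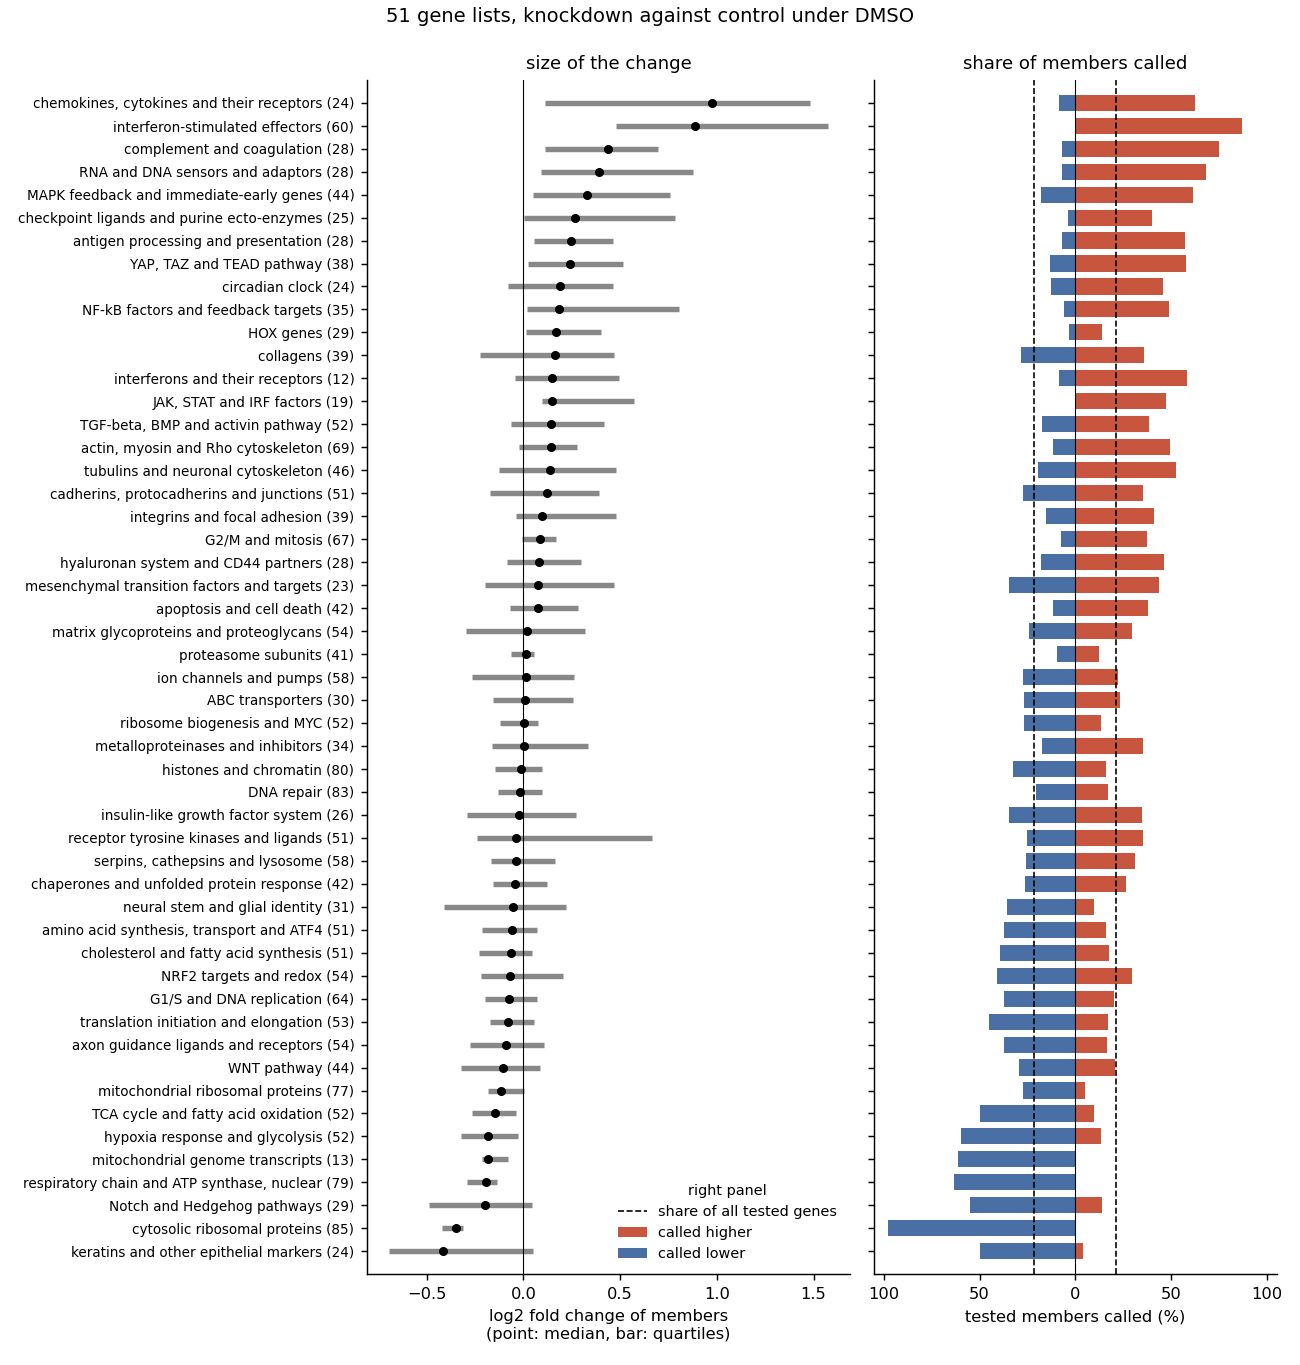
Left, the median (point) and quartiles (bar) of the log2 fold changes of knockdown over control under DMSO for the tested members of 51 of the 52 gene lists, with the number tested in brackets; right, the percentage of tested members called higher (red) or lower (blue), with dashed lines at the shares of all tested genes, 21.1% and 21.4%. Interferon-stimulated effectors have the largest share called higher (86.7%) and cytosolic ribosomal proteins the largest share called lower (97.6%).

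Integrins join the matrix to actin through talin and related adaptors, and 16 of 39 tested genes of focal adhesion rose while 6 fell (median 0.10). ITGB1, the most shared beta chain, had 1034, 1039 and 1002 CPM in the control and 1428, 1384 and 1441 CPM in the knockdown libraries, without overlap. ITGA2, a collagen-binding chain, went from 47.6 ± 2.46 to 77.5 ± 2.04 CPM, the fibronectin-binding chain ITGA5 from 81.8 ± 1.95 to 101 ± 1.79 CPM and the adaptor ZYX from 61.1 ± 0.484 to 85.8 ± 1.22 CPM. ITGAV was at 731 ± 49.0 and 728 ± 12.4 CPM. TLN1 (talin), which activates integrins, fell from 475 ± 6.85 to 315 ± 6.84 CPM, and the scaffold NEDD9 from 210.4 ± 7.57 to 132 ± 2.25 CPM. In the actin list 34 of 69 tested rose and 8 fell (median 0.14). The actin bundler PLS3, the actin elongation factor ENAH and the crosslinker ACTN1 rose by 0.55, 0.47 and 0.46. TMSB4X, which sequesters actin monomers, went from 2812 ± 331 to 2182 ± 148 CPM, and RND3, which opposes RhoA, from 92.6 ± 1.33 to 67.7 ± 1.24 CPM. ACTA2, the smooth muscle actin of contractile cells, had 13, 20 and 28 counts in the control and 69, 56 and 79 in the knockdown libraries, higher in each knockdown library (1.64 (SE 0.24)). RHOA itself was at 515 ± 11.9 and 506 ± 8.41 CPM. Of the tubulin and neuronal cytoskeleton genes 24 of 46 tested rose and 9 fell (median 0.14). Of the 46, 5 had a mean under 1 CPM in the control only, and a gene can pass the filter through 1 group alone. Of the 41 with at least 1 CPM in the control 20 rose and 9 fell (median 0.10). TUBB3 (0.69), MAP2 (0.37) and ELAVL2 (1.47) rose, while the alpha tubulin TUBA1B fell by 0.18.

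Of the matrix glycoproteins 16 of 54 tested rose (29.6%) and 13 fell (24.1%), against 21.1% and 21.4% of all genes (median 0.02). FBN2 had 988, 1065 and 954 CPM in the control and 398, 417 and 408 CPM in the knockdown libraries, lower in each knockdown library. POSTN (periostin) and EFEMP1 went from 205 ± 6.88 to 145 ± 4.94 CPM and from 492 ± 4.10 to 354 ± 4.93 CPM. LAMB1, a laminin chain, had 67.6, 67.9 and 58.7 CPM in the control and 136, 135 and 137 CPM in the knockdown libraries, higher in each knockdown library, and THBS1 (thrombospondin) went from 292 ± 10.3 to 473 ± 2.33 CPM, SPARC from 501 ± 8.53 to 616 ± 11.1 CPM and FN1 (fibronectin) from 362 ± 15.7 to 420.1 ± 11.4 CPM. Of the collagen genes and their enzymes 14 of 39 tested rose (35.9%) and 11 fell (28.2%). Their median was 0.16, 0.10 without control library 3, 0.27 without knockdown library 1 and 0.06 in the fit to log2(FPKM + 1). The basement membrane chains COL4A1 and COL4A2 rose by 0.61 and 0.46 and COL6A2 by 1.17. COL14A1 and the lysyl hydroxylase PLOD1 fell by 0.54 and 0.36. The prolyl hydroxylase genes parted, P4HA1 falling by 0.45 and P4HA2 rising by 0.59.

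Of metalloproteinases and their inhibitors 12 of 34 tested rose (35.3%) and 6 fell (17.6%), with a median of 0.00. ADAM19, a membrane protease, had 34.9, 35.4 and 32.8 CPM in the control and 115, 119 and 110.1 CPM in the knockdown libraries, and its relative ADAM12 went from 62.8 ± 3.80 to 141 ± 2.64 CPM. The groups were separate for ADAM19. MMP2 (gelatinase A) went from 279 ± 5.27 to 340.1 ± 4.65 CPM and its activator MMP14, one of the proteases that cleave CD44, was at 39.3 ± 2.13 and 38.7 ± 2.42 CPM. The inhibitors TIMP2 and TIMP3 fell by 0.44 and 0.35, and TIMP1 was at 60.6 ± 4.24 and 58.0 ± 3.99 CPM. Among serpins, cathepsins and lysosomal genes 18 of 58 tested rose (31.0%) and 15 fell (25.9%), against 21.1% and 21.4% of all genes. Their median was near 0 (-0.04), and of the 55 with at least 1 CPM in the control 15 rose and 15 fell. CTSB had 327, 309 and 314 CPM in the control and 704, 695 and 673 CPM in the knockdown libraries, without overlap, where CTSL went from 74.0 ± 0.722 to 82.2 ± 0.944 CPM. The autophagy receptor SQSTM1 and the autophagosome protein MAP1LC3B rose by 0.54 and 0.46. SERPINF1 fell by 0.83, and LAMP1 and the lysosomal master factor TFEB were at 108 ± 3.41 and 106 ± 2.68 CPM and at 12.01 ± 0.887 and 11.3 ± 0.733 CPM.

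Keratins are the intermediate filaments of epithelia. Of 24 tested keratin and other epithelial genes 12 fell (50%), 5 by 2-fold or more, and 1 rose (median -0.41). KRT15 had 866, 919 and 971 CPM in the control and 405, 426 and 398 CPM in the knockdown libraries. KRT14, which has close copies, had 249, 258 and 269.7 CPM in the control and 104, 113 and 101 CPM in the knockdown libraries. In each the knockdown libraries were all lower, with changes of -1.17 (SE 0.06) and -1.29 (SE 0.05). KRT5, the partner of KRT14, went from 833 ± 18.9 to 566 ± 39.9 CPM, KRT8 from 351 ± 6.64 to 253 ± 14.5 CPM, KRT18 from 184 ± 8.12 to 144 ± 5.53 CPM and ELF3, an epithelial ETS factor, from 77.9 ± 3.40 to 35.1 ± 0.358 CPM. SFN was at 81.5 ± 1.68 and 88.0 ± 3.91 CPM. Of mesenchymal genes 10 of 23 tested rose and 8 fell, VIM among the rises and TWIST1 (-0.45), PRRX1 (-0.35) and S100A4 (-0.41) among the falls, and ZEB1 was at 95.7 ± 3.82 and 94.4 ± 0.296 CPM. Cadherins, protocadherins and junction genes moved both ways (of 51 tested 18 higher, or 35.3%, and 14 lower, or 27.5%). PCDH18, the catenin JUP and the vascular cadherin CDH5 fell by 1.24, 0.65 and 0.67, and L1CAM and MCAM rose by 1.41 and 0.86. The largest adjusted p among the changes named for these lists was 3.8e-04 (edgeR, Benjamini-Hochberg).

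Of the neural stem cell genes 11 of 31 tested fell and 3 rose (median -0.05, -0.01 without knockdown library 1 and with library totals alone). SOX2, a factor of stem-like glioma cells, had 383, 397 and 389.6 CPM in the control and 289.6, 295 and 292 CPM in the knockdown libraries. All 3 knockdown libraries were lower. SOX4 went from 89.9 ± 0.557 to 53.1 ± 1.47 CPM, SOX21 from 46.3 ± 2.07 to 25.7 ± 1.73 CPM and the phosphatase receptor PTPRZ1 from 73.5 ± 1.36 to 46.2 ± 3.59 CPM, while SOX9 was at 125 ± 1.45 and 122 ± 6.98 CPM. NES (nestin), an intermediate filament of neural progenitors, had 42.0, 43.4 and 42.3 CPM in the control and 79.9, 78.1 and 74.5 CPM in the knockdown libraries and rose, as did the glutamate transporter SLC1A3 (0.66).

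Ribosomal protein genes encode the protein part of the cytosolic ribosome and are among the most abundant RNAs. Of 85 tested 83 fell and 0 rose, most by a similar small amount (median -0.35, quartiles -0.42 to -0.31). RPLP0 had 2725, 2498 and 2850.2 CPM in the control and 2176, 2122 and 2000.1 CPM in the knockdown libraries. RPS3 had 626, 545 and 699.8 CPM in the control and 459.8, 413 and 419 CPM in the knockdown libraries. The knockdown libraries were lower in both without overlap, with changes of -0.36 (SE 0.04) and -0.53 (SE 0.06). RPS28 fell further, from 119 ± 19.0 to 52.5 ± 2.36 CPM, and has many pseudogene copies that could share its reads, as other ribosomal protein genes have. RPS27L, a relative of RPS27, was at 28.8 ± 3.95 and 28.8 ± 2.89 CPM. The list's median was -0.38 with the GC correction and -0.31 when libraries were scaled by totals alone. Of the translation factors 24 of 53 fell and 9 rose (median -0.08), among the falls EEF1G (-0.35), EEF2 (-0.23) and EIF4B (-0.33), while the kinases MTOR and RPS6KB1, which drive ribosome production, rose by 0.21 and 0.32. In ribosome biogenesis 7 of 52 rose (13.5%) and 14 fell (26.9%, near the 21.4% of all genes). The falls numbered 8 without control library 1, 7 with library totals alone and 5 or 6 in the fits to FPKM. Nucleolar FBL and TCOF1 fell by 0.37 and 0.42, and NPM1 and NCL were at 1716 ± 18.0 and 1669 ± 30.6 CPM and at 997 ± 23.3 and 955 ± 5.16 CPM.

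Mitochondria make ATP with a respiratory chain encoded by nuclear and mitochondrial genes. Of the nuclear genes of the respiratory chain and ATP synthase 50 of 79 fell (63.3%) and 0 rose (median -0.20, -0.24 with the GC correction). Without control library 3 the falls numbered 29 (median -0.12), and in the 3 fits to FPKM 23 to 27. ATP5F1B, a catalytic subunit of the ATP synthase, went from 1282 ± 15.9 to 1045 ± 32.0 CPM, SDHA of complex II from 107 ± 2.78 to 82.6 ± 4.04 CPM and NDUFV1 of complex I from 142 ± 0.469 to 113 ± 5.57 CPM. Of the 13 protein-coding genes of the mitochondrial genome 8 fell and 0 rose (median -0.18), where the fits to FPKM called 1 to 5 lower. MT-CO1 had 21286, 23232 and 21115 CPM in the control and 17500.1, 18548 and 18476 CPM in the knockdown libraries. Its groups did not overlap, while MT-CYB was at 2663 ± 103 and 2571 ± 139 CPM. Of the mitochondrial ribosomal proteins 21 of 77 fell (27.3%, near the 21.4% of all genes) and 4 rose (median -0.12). Without control library 3 the falls numbered 12 (median -0.07), and in the fits to FPKM 9 to 11. MRPL16 stood apart from its list, with 34.5, 33.6 and 40.3 CPM in the control and 13.6, 12.6 and 13.3 CPM in the knockdown libraries and a change of -1.46 (SE 0.08), where MRPL11 changed by -0.37. The TCA cycle and fatty acid oxidation genes fell in 26 of 52 cases and rose in 5 (median -0.15). Citrate synthase CS went from 559.8 ± 11.9 to 460.3 ± 6.76 CPM. Here the adjusted p of the named changes was at most 1.7e-04 (edgeR, Benjamini-Hochberg).

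HIF factors raise glycolytic and angiogenic genes when oxygen is low. Of the hypoxia and glycolysis genes 31 of 52 tested fell (59.6%) and 7 rose (median -0.18). NDRG1, a strongly hypoxia-induced gene, had 181, 190.4 and 192 CPM in the control and 87.0, 94.3 and 89.0 CPM in the knockdown libraries, less than the control in every knockdown library. ALDOC (aldolase C) went from 21.7 ± 3.92 to 8.43 ± 0.501 CPM, GPI from 563 ± 13.1 to 442 ± 9.61 CPM and the glucose transporter SLC2A1 from 534 ± 5.70 to 463 ± 14.1 CPM. HIF1A, VEGFA and PKM were at 715 ± 32.0 and 707 ± 6.63 CPM, 186 ± 5.53 and 181 ± 3.07 CPM and 2612 ± 54.5 and 2585 ± 33.7 CPM. Opposite to the list, ERO1A and BHLHE41 rose by 0.73 and 1.57. The letters ACGTG of the hypoxia response element, on either strand of the same window, stood in 17 of 42 promoters of the list (40.5%) and in 26.4% of all tested genes with a promoter.

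Lipid synthesis genes fell in 20 of 51 tested cases (39.2%) and rose in 9 (17.6%), with a median of -0.06. The SREBP factor genes SREBF1 and SREBF2 went from 111 ± 1.87 to 68.3 ± 5.85 CPM and from 201 ± 4.46 to 150.3 ± 1.198 CPM. SCD, which desaturates fatty acids, had 517, 533 and 510.3 CPM in the control and 360.2, 381 and 360.0 CPM in the knockdown libraries, without overlap, and FADS2 and the cholesterol enzyme DHCR7 fell by 0.62 and 0.49. The cholesterol exporter ABCA1 rose by 0.55. In the amino acid and ATF4 list 19 of 51 fell (37.3%) and 8 rose (15.7%), with a median of -0.06. ATF4 went from 339 ± 8.91 to 292 ± 9.27 CPM, DDIT4 from 283 ± 19.0 to 191 ± 12.02 CPM and glutamine synthetase GLUL from 173 ± 5.77 to 129.5 ± 4.10 CPM. ASNS was at 191 ± 4.71 and 182 ± 8.43 CPM. Of the chaperones 11 rose and 11 fell of 42 (26.2% each), near the 21.1% and 21.4% of all genes. HYOU1, a chaperone of the endoplasmic reticulum, had 538, 554 and 511 CPM in the control and 272, 282 and 274 CPM in the knockdown libraries, without overlap. HSPA5 (BiP), of the same compartment, was at 1073 ± 22.8 and 1125 ± 32.4 CPM. It was called higher without knockdown library 3 (0.09), with library totals alone (0.11) and in the 3 fits to FPKM (0.10). Of the proteasome genes 5 of 41 rose (12.2%) and 4 fell (9.76%), under the shares of all genes (median 0.01).

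NRF2, the product of NFE2L2, drives antioxidant genes. Of this list 16 of 54 tested rose and 22 fell, with opposite moves among classic targets. AKR1C2, a steroid and aldehyde reductase, had 403, 393 and 414 CPM in the control and 173, 171 and 158 CPM in the knockdown libraries, and AKR1C1 and AKR1C3 fell by 0.74 and 0.63. These 3 are near copies that may share reads. The groups did not overlap for AKR1C2. ALDH1A1, an aldehyde dehydrogenase used as a stem cell marker, and GCLM of glutathione synthesis fell by 1.08 and 0.42. NQO1 and TXNRD1 rose from 367 ± 8.97 to 503 ± 11.3 CPM and from 334 ± 10.2 to 485 ± 10.9 CPM, while NFE2L2 fell by 0.22. The largest adjusted p among the named changes of the hypoxia, lipid, amino acid, chaperone and redox lists was 1.6e-04 (edgeR, Benjamini-Hochberg).

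Cells copy their DNA in S phase and divide in mitosis, with separate gene programmes. Of G1/S and replication genes 24 of 64 tested fell (37.5%) and 13 rose (20.3%), with a median of -0.07. The falls numbered 15 in each fit to FPKM. Of G2/M and mitosis genes 25 of 67 rose (37.3%) and 5 fell (7.46%), with a median of 0.08, only 0.01 with the GC correction. E2F2 had 69.0, 74.2 and 69.4 CPM in the control and 41.7, 39.6 and 41.2 CPM in the knockdown libraries. CDK2 had 116, 118 and 112 CPM in the control and 69.7, 71.0 and 73.8 CPM in the knockdown libraries. Both were lower in all knockdown libraries. MCM2 of the replicative helicase went from 210.2 ± 6.36 to 173 ± 4.20 CPM and the sliding clamp PCNA from 220.0 ± 10.4 to 188 ± 7.06 CPM. CDK6, the partner of D cyclins, had 158, 157 and 137 CPM in the control and 295, 289 and 294 CPM in the knockdown libraries, higher without overlap, and the repressor E2F7 and the nucleotide reductase RRM2 rose by 0.84 and 0.33. Of mitotic genes ANLN and KIF23, which act in cytokinesis, rose by 0.25 and 0.28, FOXM1 and CCNA2 fell by 0.18 and 0.17, and CCNB1 (cyclin B1) was at 210.0 ± 6.43 and 219 ± 0.248 CPM.

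DNA repair genes rose in 14 (16.9%) and fell in 17 (20.5%) of 83 tested cases, neither above the share of all genes, and falls numbered 10 with library totals alone and 6 or 7 in the fits to FPKM. MSH6 of mismatch recognition fell by 0.21, the damage sensors XPC and DDB2 fell by 0.33 and 0.44, BRIP1 rose by 0.28 and BRCA1 was at 93.2 ± 5.31 and 96.7 ± 4.24 CPM. Of genes tied to cell cycle control after damage, CDKN1A (p21) was at 30.4 ± 0.407 and 30.7 ± 1.70 CPM. MDM2 went from 154 ± 12.04 to 175 ± 6.63 CPM, GADD45A from 23.2 ± 0.829 to 51.6 ± 2.17 CPM and CCNG2 from 38.5 ± 2.31 to 23.8 ± 1.58 CPM. In the cell death list 16 of 42 tested rose and 5 fell. The death receptor FAS rose by 0.59, and BCL2L1 (BCL-XL) went from 189.8 ± 2.33 to 137 ± 4.99 CPM while MCL1 went from 208 ± 6.28 to 239.6 ± 1.58 CPM. BAX, BCL2L11 and CASP8 were at 20.1 ± 0.639 and 22.1 ± 1.42 CPM, 99.3 ± 5.41 and 98.3 ± 4.16 CPM and 31.4 ± 1.498 and 33.8 ± 0.528 CPM. For these repair, cell cycle control and cell death changes the adjusted p was at most 0.00264 (edgeR, Benjamini-Hochberg).

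IGFBP5, a binding protein that modulates insulin-like growth factors, had 1272, 1400.0 and 1323 CPM in the control and 738, 805 and 769 CPM in the knockdown libraries, and IGFBP4 and IGFBP2 fell by 0.65 and 0.48. The groups did not overlap for IGFBP5. PAPPA, the protease that cleaves IGFBP4, rose by 0.99 and the RNA-binding IGF2BP3 by 0.75. In that list 9 rose and 9 fell of 26 (34.6% each, against 21.1% and 21.4% of all genes). HMGA2, an architectural chromatin protein of embryonic and tumour cells, had 10.00, 9.48 and 8.57 CPM in the control and 24.96, 26.4 and 27.4 CPM in the knockdown libraries, higher in each knockdown library. Of 80 tested chromatin genes 26 fell (32.5%) and 13 rose (16.2%), and 14 or 15 fell in the fits to FPKM. The heterochromatin protein CBX5 and the 5-methylcytosine oxidase TET1 fell by 0.39 and 0.55. Of HOX genes 4 of 29 tested rose (13.8%) and 1 fell (3.45%), under the 21.1% and 21.4% of all genes. HOXB9 was the only one past 2-fold (1.24). Of clock genes 11 of 24 rose (45.8%), among them ARNTL2 (1.01) and NR1D2 (0.51), and 3 fell (12.5%). PER2 was at 15.6 ± 1.44 and 14.3 ± 0.727 CPM. Ion channels and pumps gave 13 rises (22.4%) and 16 falls (27.6%) of 58 tested, near the shares of all genes. ANO1, a calcium-activated chloride channel, was at 1.61 and the potassium channel KCNK2 at -0.92. ABC transporters gave 7 and 8 of 30 (23.3% and 26.7%), also near those shares, with ABCC4 at -0.37 and ABCD3 at 0.30. These named changes had adjusted p values of at most 1.0e-04 (edgeR, Benjamini-Hochberg).

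The same hairpins were compared in the 6 libraries that received temozolomide, which share no library with the DMSO comparison but share its fitted spread. There 22.0% of all tested genes rose and 20.3% fell. The genes counted next were chosen by their DMSO values, so their effects there are a description. Of the 338 genes 2-fold higher under DMSO, 327 were also higher under temozolomide and 281 were called, with a median of 1.44 under DMSO and 1.21 under temozolomide. Of the 120 genes 2-fold lower, 117 were lower under temozolomide and 82 were called, with medians of -1.27 and -1.10. CD44, GBP1 and AOC1 changed by -1.38, 2.78 and -2.16 under DMSO and by -1.33, 2.07 and -2.06 under temozolomide. A test of the difference between both effects called 135 of 12821 genes (1.05%) in edgeR with Benjamini-Hochberg adjustment, among them 1 of the 338 and 7 of the 120. That count depends on single libraries: it was 32 without control library 1, 283 without control library 2, and 28, 56 and 41 without knockdown library 1, 2 or 3. Without control library 3 it was 138.

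**Figure D5:**
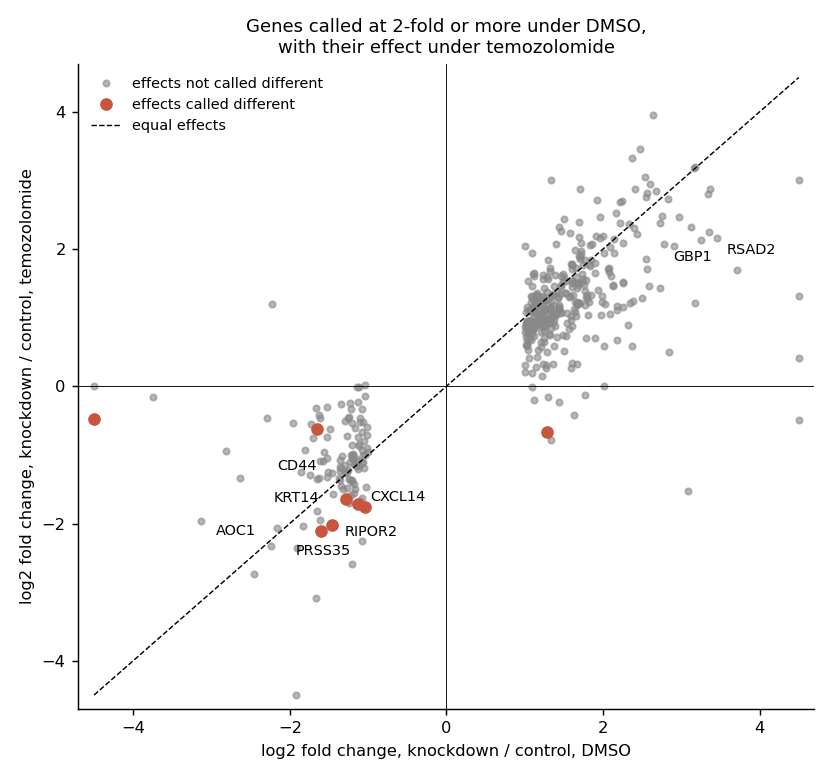
Each point is 1 of the 458 genes called at 2-fold or more under DMSO, with its log2 fold change of knockdown over control under DMSO on the x axis and under temozolomide on the y axis; the dashed line marks equal effects, red points are the 8 genes whose 2 effects were called different, and 7 points beyond 4.5 are drawn at the edge. Nearly all points lie in the lower left and upper right corners (117 of 120 and 327 of 338).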

How the data were processed

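Poly(A)-selected RNA of U251 cells was sequenced in 12 libraries. The authors deposited estimated counts per gene (10.7% to 12.0% of values are not whole numbers) and FPKM values per gene, 1 column per library. RSEM, HISAT2, StringTie 1.3.1, Bowtie2 2.2.8 and fastp 0.18.0 are named, per the submitters' processing notes. For their roles, the build and the annotation: not given in the sources used here.

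Estimated counts were rounded and filtered with filterByExpr, scaled by TMM and fitted in edgeR 4.0.16 (R 4.3.3) with 4 group means over all 12 libraries. The contrast was shCD44 less shCtrl under DMSO, tested by quasi-likelihood with Benjamini-Hochberg adjustment over 12821 genes and called below 0.05. CPM values use TMM-scaled library sizes, and ± is the SD of 3 libraries. The biological coefficient of variation was 3.90%. Sampling and library preparation use no molecular identifiers, so floors cover counting error only. Of 20289 gene IDs 20171 matched GENCODE v29, which gave positions and GC content (12782 tested genes).

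The members and gene lists were chosen with earlier results of these data known. Named genes were the key genes of each list, up to 4 called members per direction with the smallest p and the uncalled member with the smallest SE, and the 15 largest rises and falls by fold (at least 5 CPM, no overlap) and by CPM. Genes chosen after their values were seen are named as such or stand in the closing section.

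Alternatives were RLE factors, library totals, DESeq2 1.42.0, other filters, the 6 DMSO libraries alone, a replicate block, leaving out each DMSO library, limma 3.58.1 on log2(FPKM + 1 or 0.1), a threshold of 0.01 and a spline GC correction. Promoter sequences are RefSeq's (GRCh38.p14). Some listed genes, and genes on the Y chromosome and XIST, are not reported here.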

Additional observations from a re-analysis of the deposited data

Results flagged for a closer look

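The hairpin effect under DMSO differed from that under temozolomide, by the test of the difference itself, for 15 genes described above. The values are the log2 fold change under DMSO minus that under temozolomide, and their adjusted p ran from 0.000665 to 0.049 (edgeR quasi-likelihood test, Benjamini-Hochberg over 12821 genes).

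Among genes that rose under DMSO, the rise was larger there for the RNA sensor IFIH1 (difference 0.54; 0.87 under DMSO and 0.33 under temozolomide) and the mitochondrial superoxide dismutase SOD2 (difference 0.31; 0.70 and 0.40). The same held for the cystine transporter SLC7A11 (difference 0.25; 0.50 and 0.25) and the transferrin receptor TFRC (difference 0.22; 0.49 and 0.27). TGFB2 changed by 0.20 under DMSO and -0.09 under temozolomide, a difference of 0.29.

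Among genes that fell under DMSO, the fall was smaller there for CXCL14 (difference 0.59; -1.13 and -1.72), RIPOR2 (difference 0.56; -1.46 and -2.02), PRSS35 (difference 0.51; -1.60 and -2.11), IGFBP5 (difference 0.47; -0.79 and -1.26) and the keratin KRT14 (difference 0.35; -1.29 and -1.64). It was larger under DMSO for C1orf116 (difference -1.03; -1.66 and -0.62), the junction protein JUP (difference -0.37; -0.65 and -0.28) and IGFBP2 (difference -0.24; -0.48 and -0.24). The matrix protein gene TGFBI and the integrin gene ITGAV were not called under DMSO (0.00 and -0.01). Under temozolomide they were at 0.33 and -0.28, differences of -0.34 and 0.28.

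IGFBP5, SOD2, CXCL14 and TGFBI remained called in this test whichever of the 6 DMSO libraries was left out. The other 11 genes lost the call in 3 to 5 of those 6 fits, in which the count of calls over all genes fell to 28 to 56 without control library 1 or any knockdown library.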

How the results depend on the processing

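Over 18 alternatives no gene kept its call with the other direction. CD44 stayed lower in each, between -1.34 and -1.63. Of the 269 called genes named above 261 were called in every alternative, the adjusted p threshold of 0.01 included. The 8 exceptions were STING1, MAVS, STAT2, IFNAR1, CD276, WWTR1, NFKB1 and MT-CO1, the last pair only in the fit to FPKM of all genes with a value. With the GC correction HIF1A, NPM1, NCL, CANX, ITGAV, RHOA, ZEB1, ASNS and MT-CYB, uncalled in the main test, were called lower (-0.13 to -0.08). BAX (0.20) and SFN (0.21) were called higher. With library totals alone CASP8 (0.15), CCNB1 (0.10) and HSPA5 (0.11) were also called higher. The cause was not tested. Fits with limma to log2 FPKM called 1736, 1738 and 1621 genes lower (pseudocounts 1 and 0.1, and 1 with no filter). With a pseudocount of 1 they called 87 genes 2-fold higher and 28 2-fold lower, filtered or not, since that pseudocount shrinks the folds of low genes. Of 57 list medians 53 moved in some alternative by more than the spread between replicates. The 12 that changed sign or reached 0 lay between -0.11 and 0.02 as reported and reached at most 0.12.

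The count of genes whose effect differed from that under temozolomide was the least stable. It was 337 with DESeq2, 546 with no filter, 13 at an adjusted p below 0.01, 33 with the GC correction and 28 to 283 over the fits that left out 1 library. With limma on FPKM it was 3 with a pseudocount of 1, and 0 with 0.1 or with no filter, where 1724 and 1982 genes had an unadjusted p below 0.05 (edgeR: 2279). The cause was not tested.

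Libraries with the same replicate number deviated together weakly or not at all: the 3 DMSO pairs had correlations of 0.09, -0.05 and -0.04. Over all 18 same-number pairs the correlations ran from -0.08 to 0.14, and the best match of a library shared its number in 6 of 12 cases. With the replicate number as a block 2749 genes were higher, 2793 lower and 222 differed from temozolomide. Genes with under 3 counts in a library, such as IFNB1, could not be resolved at this depth.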

Other observations

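Promoter letters were also counted in the genes called at 2-fold or more, between 250 bases before and 50 after the RefSeq start on both strands. Of the 240 such higher genes with a promoter in the table, 25 held the AP-1 letters TGANTCA (10.4%), against 4.47% of all tested genes with a promoter. The NF-kB consensus stood in 29 of them (12.1%, against 6.54%) and the ISRE letters (TTTC, any 2 bases and TTTC) in 23 (9.58%, against 2.85%). Of the 81 lower genes with a promoter 4 held the AP-1 letters (4.94%), 8 the NF-kB consensus (9.88%) and 0 the ISRE letters, which allows a share of up to 3.7%. The same contrast chose these genes, so the shares are a description.

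By chromosome, the median change of the autosomes ran from -0.07 (chromosome 22) to 0.06 (chromosome 18). Of 922 tested genes on chromosome 19, 111 rose and 221 fell, and of 216 on chromosome 13, 65 rose and 33 fell. The GC content of the genes, which moved with the share called, was not separated from position here.

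Some markers of other cell types moved, in both directions. KDR, the main VEGF receptor of endothelium, had 3, 2 and 3 counts in the control and 28, 30 and 34 in the knockdown libraries. Its mean was 0.17 CPM in the control. Of the other tested endothelial markers TEK rose by 0.79, CDH5 fell by 0.67 and PECAM1 did not pass the test. SYT1, a sensor for synaptic vesicle release, had 60, 60 and 71 counts in the control and 134, 124 and 197 in the knockdown libraries. The defining leukocyte marker PTPRC had 6 to 12 counts in all 6 libraries.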
